A study of Mus musculus with 12 samples.

Results

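The genes described here are 10 genes of interleukin 1, interleukin 6 and acute-phase signalling: Il1b, Il1rn, Il1r1, Il1rap, Nlrp3, Il6, Il6st, Osmr, Lcn2 and Ptgs2. They were chosen by gene symbol among 24704 genes with a probe set, and each of the 10 had 1 probe set. The arrays measured RNA of adult mouse ventricular myocytes, isolated with enzymes on a Langendorff perfusion system and then cultured for 24 h with or without 100 nM isoprenaline (Iso), an agonist of beta-adrenergic receptors. The cells came from 3 wild-type (WT) mice and 3 double knockout (DKO) mice lacking the calcium/calmodulin-dependent kinases CaMKIIδ and CaMKIIγ, and each mouse gave 1 untreated and 1 Iso-treated array. This made 4 groups of 3 arrays: WT untreated, WT with Iso, DKO untreated and DKO with Iso. Mice are numbered 1 to 3 within each genotype, and values are listed in that order. All animals were adult, and the labels name no Cre or promoter behind the deletion. The series asks how gene expression responds to Iso in WT and DKO myocytes.

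Values are log2 intensities on a scale that ran from 2.25 to 13.8, with an array median of 3.31 to 3.32. A gene was tested when 3 or more of the 12 arrays put it over their own median, which kept 13737 genes. Of the 10 genes, 8 were kept. Il1rap, the co-receptor of the interleukin 1 receptor, was above the array median on 0 arrays, and Nlrp3, the sensor of the inflammasome that releases mature interleukin 1 beta, was above it on 1 array. Differences below are in log2 units with their standard error (SE), and adjusted p-values are those of limma with Benjamini-Hochberg adjustment over the 13737 genes; a gene is said to rise or fall only at an adjusted p under 0.05.

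As a check of the genotype labels, Camk2g lay at 4.78 to 5.80 on the WT arrays and at 3.57 to 4.20 on the DKO arrays. Camk2d lay at 7.94 to 8.42 and at 7.36 to 7.98, and its difference between mouse means did not pass the test (adjusted p = 0.485); the sources used here do not say which exons its probes cover. The untreated array of DKO mouse 3 stood apart, with a median correlation with the other arrays of 0.956 against 0.984 to 0.988, so results that rest on it are also given without it. Myocyte markers were bright on every array, led by Myl2, Actc1 and Tnnt2, and the mean over 14 such markers was 11.95 to 12.26. Markers of other heart cells were present as well: 19 of 21 macrophage genes and all 16 endothelial genes on the arrays passed the filter, whereas the leukocyte gene Ptprc and the monocyte receptor Ccr2 were dim in all groups.

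Interleukin 1 beta acts on a receptor made of Il1r1 and Il1rap and switches on NF-kB, while the Il1rn product occupies the same receptor without signalling. Interleukin 6 and oncostatin M act through receptors that share the gp130 chain, encoded by Il6st, and signal through JAK kinases and STAT3. Both routes induce acute-phase proteins, among them the siderophore-binding lipocalin 2 (Lcn2), and interleukin 1 also induces the prostaglandin synthase gene Ptgs2. In the heart these cytokines are made by resident macrophages, fibroblasts and stressed myocytes.

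Lcn2 was lower in DKO than in WT mice over both treatments (limma adjusted p = 0.0201), the clearest genotype difference among the members. Its differences with Iso and without Iso had the same direction but did not pass. Il1rn, the receptor antagonist, rose with Iso over both genotypes (limma adjusted p = 0.0450) but did not pass within either genotype. Its call was lost in 12 of 21 alternative fits. The promoters of these 2 genes and of Il6 are shown because Lcn2 and Il1rn passed the test and because Il6 held the most motif matches of the 10 genes. Each sequence is the 250 bases upstream of the RefSeq transcription start on GRCm38.p6, read 5′ to 3′ on the gene's strand, with motif matches in capitals. The Lcn2 window is chr2:32387740-32387989 on the minus strand, the Il1rn window is chr2:24336610-24336859 on the plus strand, and the Il6 window is chr5:30012864-30013113 on the plus strand.
Lcn2: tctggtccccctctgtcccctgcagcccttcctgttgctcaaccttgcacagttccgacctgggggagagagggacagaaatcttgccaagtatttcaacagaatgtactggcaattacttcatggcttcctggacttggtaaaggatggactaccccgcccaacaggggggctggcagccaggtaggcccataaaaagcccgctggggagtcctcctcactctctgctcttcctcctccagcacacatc
Il1rn: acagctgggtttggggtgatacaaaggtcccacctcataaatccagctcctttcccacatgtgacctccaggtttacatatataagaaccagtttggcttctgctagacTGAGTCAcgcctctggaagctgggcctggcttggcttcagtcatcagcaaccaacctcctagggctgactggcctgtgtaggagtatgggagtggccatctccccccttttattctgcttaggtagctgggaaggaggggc
Il6: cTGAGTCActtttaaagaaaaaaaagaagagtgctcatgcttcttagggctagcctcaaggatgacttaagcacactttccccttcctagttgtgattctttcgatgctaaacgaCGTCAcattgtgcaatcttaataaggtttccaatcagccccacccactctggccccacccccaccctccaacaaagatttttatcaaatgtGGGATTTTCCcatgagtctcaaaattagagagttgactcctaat

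The motifs searched on both strands were the cAMP response element TGACGTCA, its core TGACG (which the full element contains), the AP-1 site TGANTCA, the STAT site TTCNNNGAA and the NF-kB consensus. The Il1rn window shown held 1 AP-1 match, 141 bases before the start, and the windows of 2 further Il1rn starts, chr2:24345041-24345290 and chr2:24345121-24345370, held none. The Il6 window held an AP-1 match 249 bases, a cAMP core 135 bases and an NF-kB match 44 bases before the start. The Lcn2 window held none of these letters, and neither did those of Il1b, Ptgs2, Osmr, Il6st and Il1rap. Il1r1 had a cAMP core at 1 of its starts and an NF-kB match at the other, and Nlrp3 had an NF-kB match at 1 start. Of 32851 promoter windows in the RefSeq table, 6.749% held an AP-1 match, 17.765% a cAMP core, 1.546% the full cAMP element, 7.02% a STAT match and 7.251% an NF-kB match.

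**Figure D1:**
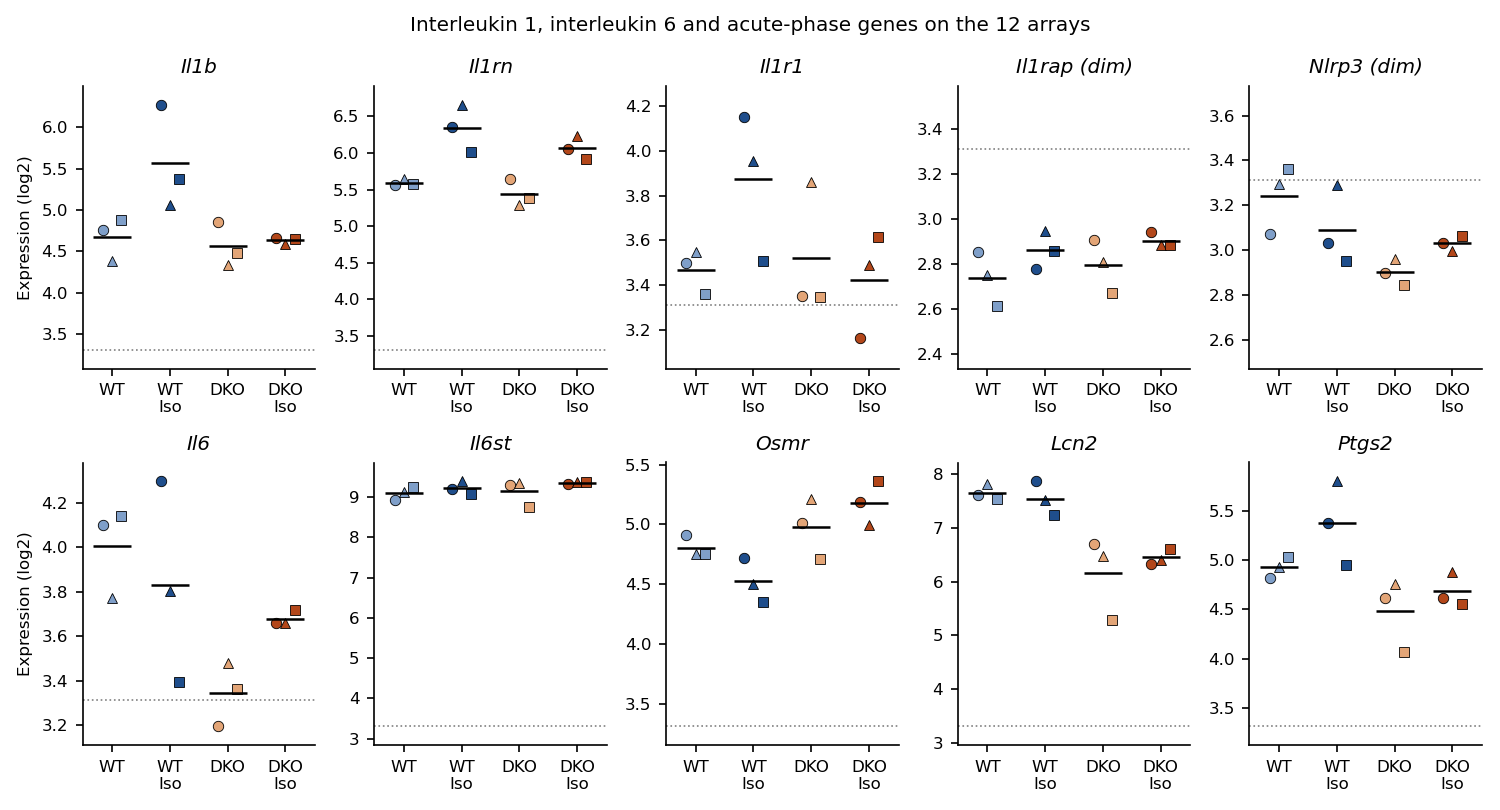
Log2 intensity of the 10 genes (vertical axes) on each array of the 4 groups (horizontal axes), with circles, triangles and squares for replicates 1, 2 and 3, a bar for the group mean and a dotted line at the array median of 3.31. All 6 DKO arrays of Lcn2 lie below all 6 WT arrays, and Il1rap lies under the dotted line throughout.

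Lcn2 (Entrez 16819, chr2:32384637-32387739, GRCm38.p6) encodes the secreted protein that binds bacterial siderophores and is a marker of inflammatory and cardiac stress. Its log2 intensity was 7.61, 7.81 and 7.54 in WT myocytes without Iso and 7.86, 7.52 and 7.24 in those with Iso. In DKO myocytes it was 6.70, 6.48 and 5.29 without Iso and 6.33, 6.41 and 6.61 with Iso. The WT arrays thus spanned 7.24 to 7.86 and the DKO arrays 5.29 to 6.70, with no overlap. Such a gap between all 6 WT and all 6 DKO arrays, in either direction, was seen for 1 of the 8 tested members and for 1.09% of all genes tested.

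Averaged over the 2 arrays of each mouse, Lcn2 was 7.74, 7.67 and 7.39 in the WT mice and 6.52, 6.44 and 5.95 in the DKO mice. DKO mice were lower by a log2 difference of -1.30 (SE 0.16, n = 3 against 3 mice, limma adjusted p = 0.0201), a 2.46-fold lower level, and the direction held for all 3 DKO mice. Lcn2 was the 1 member of 8 that passed in this comparison, against 0.291% of all genes tested. Before adjustment 5 of the 8 (Il1b, Il6, Lcn2 and Ptgs2 lower, Osmr higher) were under 0.05 by limma, as were 9.68% of all genes. The members were chosen with earlier results of these data known, so the 2 shares do not test the set. In each fit that left out 1 array, the mouse concerned was represented by its other array alone. Without the untreated array of DKO mouse 3, which held the lowest value of 5.29, the difference was -1.08 (limma adjusted p = 0.00208). That fit called 164 of 13737 genes, against 40 as reported. The call was lost without the Iso array of DKO mouse 1 (limma adjusted p = 0.0553), without that of DKO mouse 3 (-1.52, 0.560) or without the untreated array of WT mouse 3 (0.0549), and when no filter was applied (0.0787).

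Within each treatment Lcn2 differed in the same direction but did not pass. Without Iso the difference was -1.50 (SE 0.29, limma adjusted p = 0.0776), a 2.83-fold lower level. It narrowed to -1.07 and passed (limma adjusted p = 0.0209) without the untreated array of DKO mouse 3. It also passed without that of DKO mouse 1 (0.0430) or 2 (0.0379). Over all 13737 genes those fits called 46, 18 and 180 in the same order, against 28 as reported. With Iso the Lcn2 difference was -1.09 (SE 0.29, limma adjusted p = 0.211), a 2.13-fold lower level. It passed without the untreated array of DKO mouse 3 (0.00503), whose spread enters the shared error, and when only the arrays with Iso were fitted (0.0229). Those fits called 163 and 77 of 13737 genes, against 42 as reported. Iso itself gave Lcn2 differences of -0.11 in WT and 0.29 in DKO myocytes, neither past the test, and the 3 DKO mice differed by -0.36, -0.07 and 1.31 between their 2 arrays. The value of 1.31 belongs to the mouse whose untreated array stood apart, and without that array the DKO difference with Iso was -0.14.

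Lcn2 is also a granule protein of neutrophils, and 9 of the 13 neutrophil genes on the arrays were dim in WT untreated myocytes, including S100a8, S100a9, Ly6g, Csf3r and Cxcr2, which were dim in all 4 groups. The mean over the 13 genes was 2.97 to 3.00 in WT untreated, 3.02 to 3.09 in WT with Iso, 3.02 to 3.08 in DKO untreated and 3.03 to 3.07 in DKO with Iso. The corresponding macrophage means, over 21 genes, were 4.30 to 4.41, 4.22 to 4.45, 4.24 to 4.48 and 4.09 to 4.22. Over both treatments, the comparison in which Lcn2 passed, 14 of 19 tested macrophage genes lay below 0 in DKO, with a median of -0.05, and 7 of the 19 were under 0.05 before adjustment, against 9.68% of all genes; none passed. Between the untreated groups 11 of 19 lay below 0, with a median of -0.02. With Iso 15 of 19 tested macrophage genes lay below WT, with a median of -0.22 against 0.00 over all genes, and 1 of them fell: Cd14, the lipopolysaccharide co-receptor (-0.92, SE 0.17, limma adjusted p = 0.0402). Over both treatments 10 of 12 tested fibroblast genes lay below 0 in DKO, with a median of -0.11. Of 8 tested mesothelial genes 7 lay below 0, with a median of -0.19. The same count was 8 of 14 for myocyte, 5 of 16 for endothelial and 2 of 10 for smooth muscle and pericyte genes. It was 0 of 4 for neutrophil and 2 of 3 for lymphocyte and mast cell genes. Of all genes tested, 49.2% were above 0. The part of any of these cells in the Lcn2 difference was not tested. In such bulk samples fewer cells of a type and less RNA per cell cannot be told apart. Lcn2 lies on chromosome 2, while Camk2d lies on chromosome 3 and Camk2g on chromosome 14. Any part of genomic position in the Lcn2 difference was not tested.

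**Figure D2:**
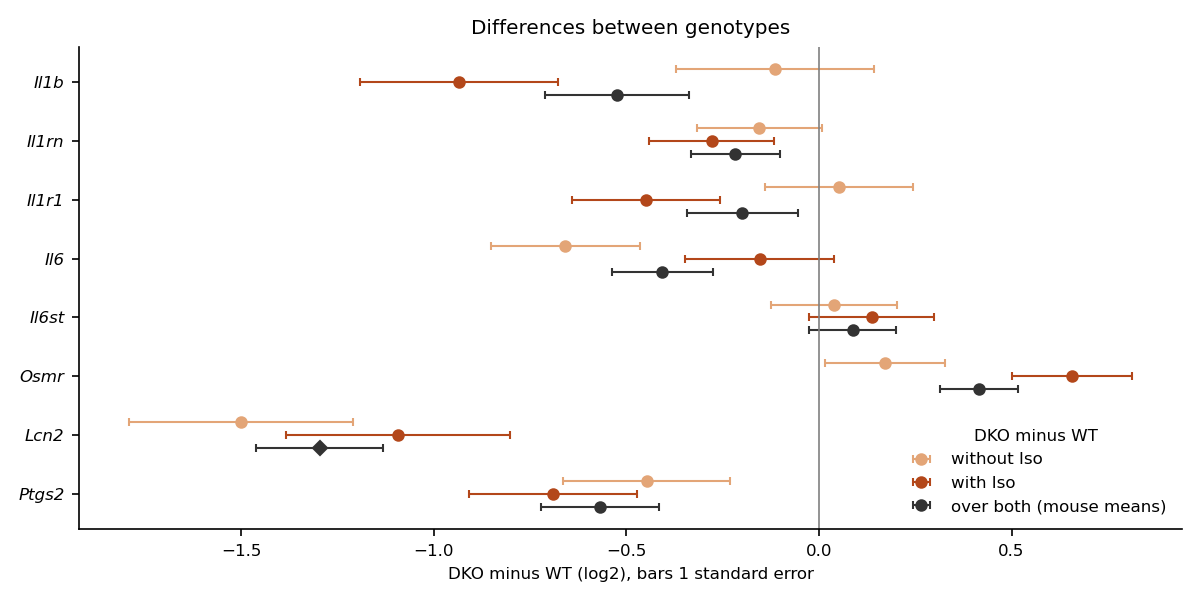
DKO minus WT in log2 units (horizontal axis) for the 8 tested genes without Iso, with Iso and over both treatments from mouse means, with bars of 1 SE from limma; a diamond marks an adjusted p under 0.05. The 1 diamond is Lcn2 over both treatments, at -1.30, and Osmr is the gene furthest to the right with Iso, at 0.66.

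Il1rn (Entrez 16181, chr2:24336860-24351491) encodes the interleukin 1 receptor antagonist. Its log2 intensity was 5.56, 5.64 and 5.58 in WT myocytes without Iso and 6.36, 6.66 and 6.02 in those with Iso. In DKO myocytes it was 5.65, 5.29 and 5.38 without Iso and 6.06, 6.23 and 5.92 with Iso. All 6 Iso arrays lay above all 6 untreated arrays, a pattern whose share over all genes was not counted. The gene was higher with Iso in each of the 6 mice, by 0.80, 1.01 and 0.44 in WT and by 0.41, 0.94 and 0.53 in DKO.

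Over both genotypes Il1rn rose with Iso by 0.69 (SE 0.12, limma adjusted p = 0.0450), which is 1.61-fold. It was the 1 member of 8 that passed in this comparison, against 0.124% of all genes tested. It was also the 1 member of 8 with the same sign in all 6 mice, a pattern shown by 7.08% of all genes tested. With the mouse as a fixed block, which pairs the 2 arrays of each animal, the adjusted p of limma was 0.0928 at the same difference. The call was also lost in 10 of the 12 fits that left out 1 array, in which the difference stayed between 0.61 and 0.77 and the highest adjusted p was 0.174; it was kept without the untreated array of DKO mouse 3 (0.0290) or the Iso array of WT mouse 3 (0.0245).

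Within genotypes the Il1rn difference was 0.75 in WT (SE 0.16, limma adjusted p = 0.333) and 0.63 in DKO (SE 0.16, limma adjusted p = 0.0959). The interaction, which is the Iso difference in DKO minus that in WT, was -0.12 (SE 0.23, limma adjusted p = 0.864). No member passed in WT, where 0.0218% of genes passed and 2 of 8 members, against 6.70% of all genes, had an unadjusted p under 0.05 by limma. No member passed in DKO, where 0.051% of genes passed and 1 of 8 members, against 18.4% of all genes, was under 0.05 before adjustment by limma. For the interaction, 0 of 8 members and 0.0146% of genes passed, with 2 members, Il1b and Osmr, and 10.1% of all genes under 0.05 before adjustment by limma.

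**Figure D3:**
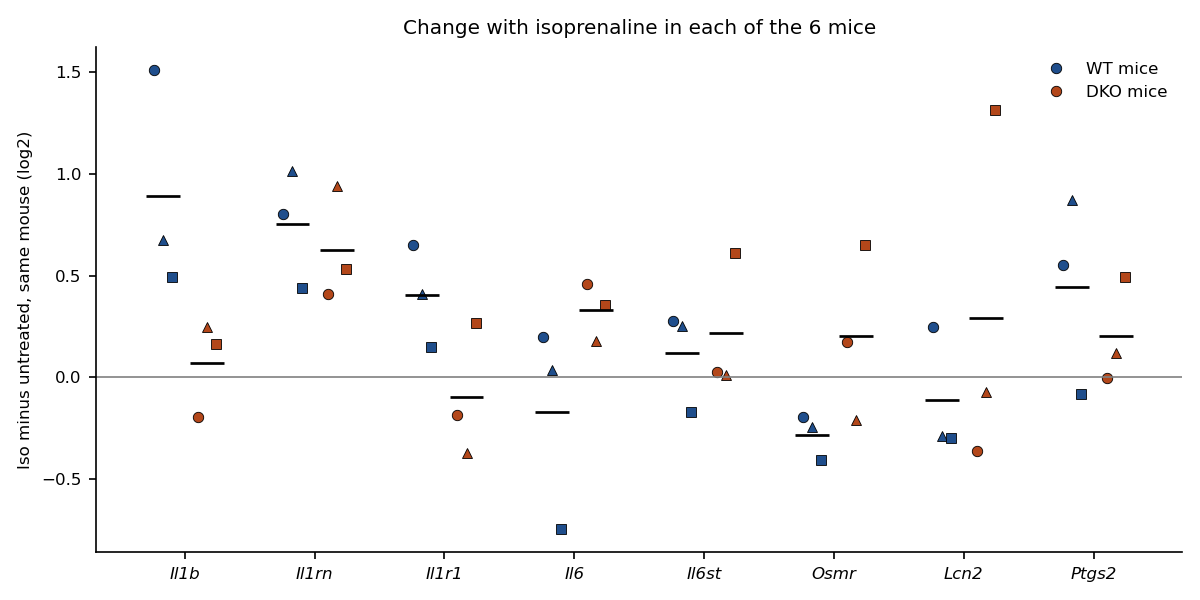
Iso minus untreated in log2 units (vertical axis) for each mouse and each of the 8 tested genes, WT mice in blue and DKO mice in orange, with bars for the mean of 3 mice. Il1rn lies above 0 in all 6 mice, while Il1b spans 0.49 to 1.51 in the WT mice and -0.20 to 0.25 in the DKO mice.

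Il1b (Entrez 16176, chr2:129364569-129371164), the interleukin 1 beta ligand, had its highest values in WT myocytes with Iso. Its log2 intensity was 4.76, 4.38 and 4.88 in WT untreated, 6.27, 5.06 and 5.37 in WT with Iso, 4.86, 4.34 and 4.49 in DKO untreated and 4.66, 4.59 and 4.65 in DKO with Iso. The 3 WT arrays with Iso lay above the other 9 arrays, a pattern whose share over all genes was not counted. The difference with Iso was 0.89 in WT (SE 0.26, limma adjusted p = 0.460) and 0.07 in DKO (SE 0.26, limma adjusted p = 0.914), and neither passed. The interaction was -0.82 (SE 0.36, unadjusted p = 0.0425, limma adjusted p = 0.476), which did not pass. Between genotypes with Iso the difference was -0.93 (SE 0.26, limma adjusted p = 0.241). The WT difference rests in part on the Iso array of WT mouse 1, at 6.27, without which it was 0.54.

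Markers of other cells are given beside Il1b, and none of them passed with Iso in WT or in the interaction. Of 8 tested mesothelial genes 7 were above 0 with Iso in WT, with a median difference of 0.31, and 0 of 8 were above 0 in the interaction, with a median of -0.40. The mean over 9 mesothelial genes was 3.76 to 3.81 in WT untreated, 4.00 to 4.11 in WT with Iso, 3.67 to 3.89 in DKO untreated and 3.60 to 3.80 in DKO with Iso. Of 16 endothelial genes, 15 were above 0 with Iso in WT, with a median of 0.21. The same count was 13 of 14 for myocyte, 4 of 12 for fibroblast and 2 of 10 for smooth muscle and pericyte genes. It was 2 of 4 for neutrophil and 2 of 3 for lymphocyte and mast cell genes. Of all genes tested, 47.8% were above 0 with Iso in WT and 50.8% in the interaction. In the interaction 4 of 16 endothelial genes were above 0, with a median of -0.40. So were 6 of 19 macrophage genes, with a median of -0.16. The interaction count was 8 of 14 for myocyte, 6 of 12 for fibroblast and 6 of 10 for smooth muscle and pericyte genes. It was 3 of 4 for neutrophil and 1 of 3 for lymphocyte and mast cell genes. Of the 19 macrophage genes, 6 were above 0 and 13 below with Iso in WT, with a median of -0.04. Cd14, of that list, had group means of 6.34 in WT untreated, 7.01 in WT with Iso, 6.16 in DKO untreated and 6.08 in DKO with Iso. The part of these cells in the Il1b values was not tested.

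Il1r1 (Entrez 16177, chr1:40222480-40316201), the signalling receptor of interleukin 1, was close to the array median throughout. It measured 3.50, 3.55 and 3.36 in WT untreated, 4.15, 3.96 and 3.51 in WT with Iso, 3.35, 3.86 and 3.35 in DKO untreated and 3.17, 3.49 and 3.61 in DKO with Iso. The groups overlapped, and the largest differences were an interaction of -0.50 (SE 0.27, limma adjusted p = 0.534), -0.45 for DKO against WT with Iso (SE 0.19, limma adjusted p = 0.588) and 0.40 for Iso in WT (SE 0.19, limma adjusted p = 0.754). The dim Il1rap spanned 2.61 to 2.95 over the 12 arrays. The dim Nlrp3 spanned 2.84 to 3.36, with untreated WT arrays at 3.07, 3.29 and 3.36 and untreated DKO arrays at 2.90, 2.96 and 2.84, and was not tested.

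Il6 (Entrez 16193, chr5:30013114-30019975) encodes the interleukin 6 ligand. Its log2 intensity was 4.10, 3.77 and 4.14 in WT untreated, 4.29, 3.80 and 3.39 in WT with Iso, 3.20, 3.48 and 3.36 in DKO untreated and 3.66, 3.66 and 3.72 in DKO with Iso. The untreated WT arrays all lay above the untreated DKO arrays, a pattern whose share over all genes was not counted. With Iso the genotypes overlapped. Without Iso the DKO difference was -0.66 (SE 0.19, unadjusted p = 0.00499, limma adjusted p = 0.195). Over both treatments it was -0.41 (SE 0.13, limma adjusted p = 0.348). With arrays weighted by their quality, the untreated difference of -0.70 passed (limma adjusted p = 0.0312). That weighted fit called 698 of 13737 genes in this comparison, against 28 in the unweighted fit. No member passed in the unweighted comparison without Iso, in which 0.204% of genes passed and 2 of 8 members, Lcn2 and Il6, were under 0.05 before adjustment by limma, as were 13.8% of all genes.

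Il6st (Entrez 16195, chr13:112464070-112506860), the shared gp130 chain, was expressed at similar values in all groups. It measured 8.93, 9.14 and 9.24 in WT untreated, 9.21, 9.39 and 9.07 in WT with Iso, 9.30, 9.37 and 8.76 in DKO untreated and 9.33, 9.38 and 9.37 in DKO with Iso. Its differences lay between 0.04 and 0.22 over the 7 comparisons, and none passed the test by limma. The lowest value, 8.76, was that of the untreated array of DKO mouse 3.

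Osmr (Entrez 18414, chr15:6813568-6874968), the oncostatin M receptor that pairs with gp130, had its highest values in DKO myocytes, most clearly with Iso. Its log2 intensity was 4.91, 4.75 and 4.75 in WT untreated, 4.71, 4.50 and 4.35 in WT with Iso, 5.01, 5.21 and 4.71 in DKO untreated and 5.18, 5.00 and 5.36 in DKO with Iso. With Iso, the 3 DKO arrays all lay above the 3 WT arrays, and without Iso the groups overlapped. How many of all genes had such a gap with Iso was not counted. The difference with Iso was 0.66 (SE 0.16, limma adjusted p = 0.145), 1.58-fold, and over both treatments it was 0.41 (SE 0.10, limma adjusted p = 0.220). Without the untreated array of DKO mouse 3 the difference with Iso passed (limma adjusted p = 0.0365), as it did with array weights (0.0350). The fit without that array left the difference at 0.66. It called 163 of 13737 genes, and array weights called 164, against 42 as reported. Osmr was lower with Iso in all 3 WT mice, by -0.19, -0.25 and -0.40, and went both ways in DKO, at 0.17, -0.21 and 0.65; the interaction was 0.49 (SE 0.22, limma adjusted p = 0.487).

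Ptgs2 (Entrez 19225, chr1:150100031-150108234) encodes cyclooxygenase 2, the inducible enzyme of prostaglandin synthesis. It measured 4.82, 4.93 and 5.03 in WT untreated, 5.38, 5.80 and 4.95 in WT with Iso, 4.62, 4.76 and 4.06 in DKO untreated and 4.61, 4.88 and 4.56 in DKO with Iso. WT arrays spanned 4.82 to 5.80 and DKO arrays 4.06 to 4.88, overlapping at a single pair of arrays. Without Iso the DKO difference was -0.45 (SE 0.22, limma adjusted p = 0.383), and -0.24 without the untreated array of DKO mouse 3, at 4.06 (limma adjusted p = 0.684). It was -0.69 with Iso (SE 0.22, limma adjusted p = 0.335) and -0.57 over both (SE 0.15, limma adjusted p = 0.270). With Iso, 0 of 8 members passed between genotypes, against 0.306% of all genes. In that comparison 5 of 8 members were under 0.05 before adjustment by limma (Il1b, Il1r1, Lcn2 and Ptgs2 lower, Osmr higher), while 7.91% of all genes were. The members were chosen with earlier results of these data known, so these shares do not test the set. The median over the 8 members was -0.36 with Iso and -0.13 without it; the comparisons with and without Iso use different arrays of the same mice.

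**Figure D4:**
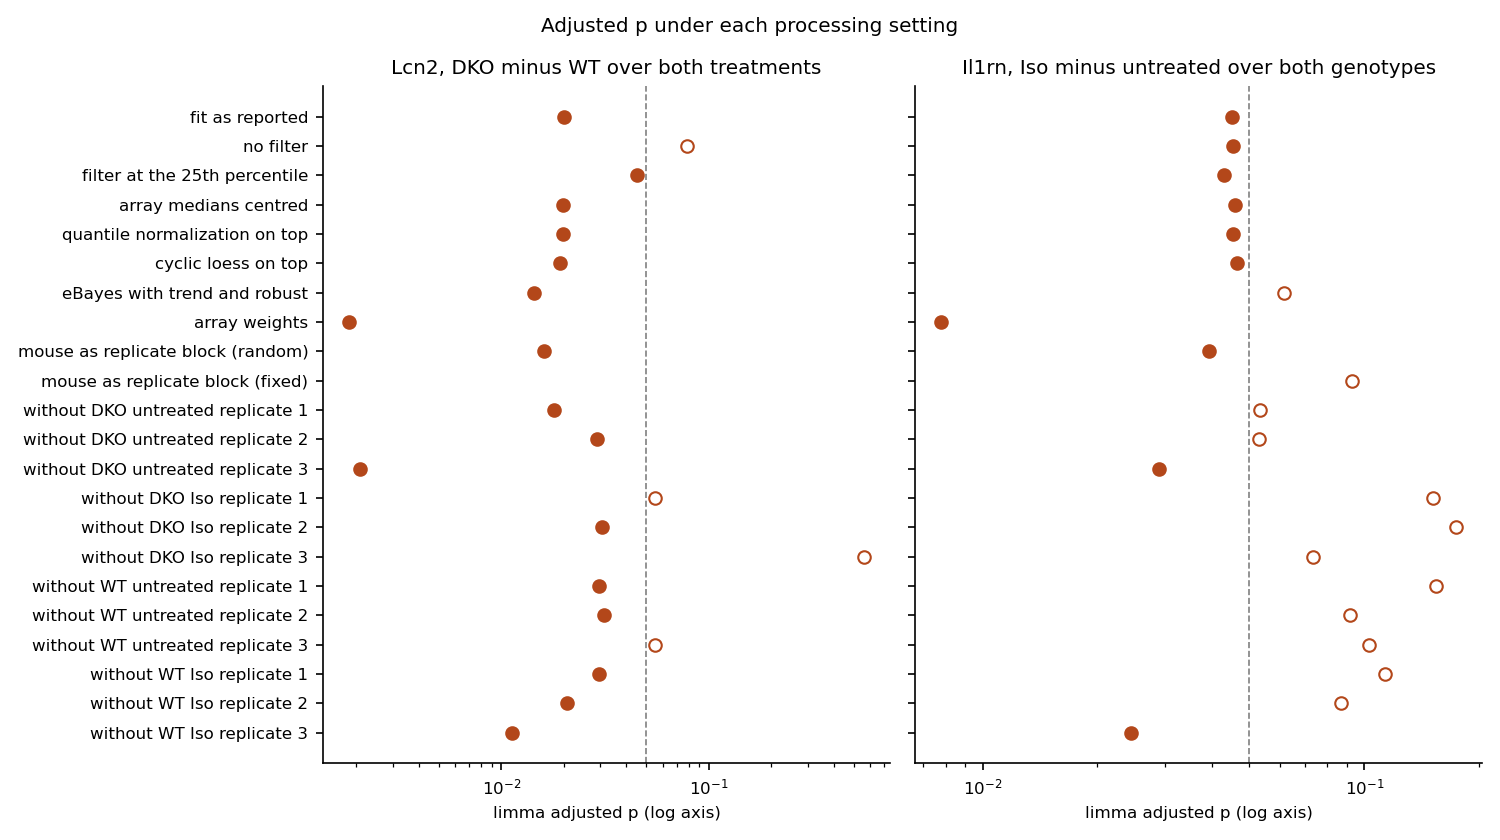
Adjusted p of limma (horizontal axis, log scale) for the 2 called results, Lcn2 in DKO over both treatments and Il1rn with Iso over both genotypes, in each analysis setting (rows), with filled symbols under 0.05 and a dashed line at 0.05. Lcn2 kept its call in 16 of 20 alternatives and Il1rn in 9 of 21.

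The wider pathways were described with 6 lists of other genes: the interleukin 1 family and inflammasome, interleukin 1 receptor to NF-kB signalling, interleukin 6 family cytokines and receptors, JAK-STAT3 signalling, acute-phase proteins, and prostaglandin synthesis and receptors. They held 163 genes, of which 144 were on the arrays and 100 were tested. By limma 0 of these 100 genes passed in any of the 7 comparisons, and between 6 (Iso in WT) and 23 (Iso in DKO) of them were under 0.05 before adjustment. The corresponding shares of all genes were 6.70% and 18.4%. The 2 genes with the smallest p-value of each list are named below.

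In the interleukin 1 family list, 11 of 26 genes were tested and 15 were dim, including Casp1, the protease that cleaves the interleukin 1 beta precursor, and the alarmin Il33. Txnip, a thioredoxin-binding protein that also binds the Nlrp3 product, had the smallest p-value: 0.42 with Iso over both genotypes (limma adjusted p = 0.0656), with 0.43 in WT and 0.40 in DKO. Pycard, the inflammasome adaptor, differed by -0.53 with Iso in DKO (limma adjusted p = 0.236); its untreated DKO arrays read 6.68, 6.45 and 7.61, the last being the array that stood apart. In the NF-kB list 29 of 31 genes were tested. The transcription factor subunits Rel and Relb led it. Rel differed by 0.70 between genotypes with Iso (limma adjusted p = 0.186) and by 0.68 with Iso in DKO (limma adjusted p = 0.0969), and Relb by -0.51 with Iso in DKO (limma adjusted p = 0.0913).

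In the interleukin 6 family list 12 of 15 genes were tested. The interleukin 6 receptor Il6ra, at -0.30, and the cytokine Cntf, at 0.27, led it with Iso over both genotypes (limma adjusted p = 0.284 and 0.275). In the JAK-STAT3 list 19 of 20 were tested, led by Stat3 at 0.46 and the AP-1 subunit Junb at -0.68, both with Iso in DKO (limma adjusted p = 0.0845 and 0.104). Stat3 was 8.80, 8.70 and 8.55 in DKO untreated and 9.23, 9.12 and 9.09 in DKO with Iso. These did not overlap, a pattern whose share over all genes was not counted. On the WT arrays of both treatments Stat3 was 8.97 to 9.14.

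In the acute-phase list 16 of 31 genes were tested, and the 15 dim genes included the liver proteins Saa1, Saa2, Fga, Fgb, Fgg, Crp and Hamp. Over both treatments 8 of the 16 were above 0 in DKO and 8 below, with a median of -0.03. Timp1, an inhibitor of matrix metalloproteinases, differed by -0.69 over both treatments (limma adjusted p = 0.129), with WT arrays at 4.28 to 4.87 and DKO arrays at 3.61 to 4.35. Lrg1, a secreted leucine-rich glycoprotein, differed by -0.71 with Iso over both genotypes (limma adjusted p = 0.110) and by -0.94 with Iso in DKO (limma adjusted p = 0.0935). Between genotypes with Iso it differed by -1.01 (limma adjusted p = 0.157), with all 3 WT arrays at 6.45 or above and the DKO arrays at 5.80, 5.41 and 6.04. The share of all genes with such a gap was not counted. In the prostaglandin list 13 of 21 genes were tested, led by the prostacyclin synthase Ptgis and the prostaglandin transporter Slco2a1. Ptgis had an interaction of -0.60 (limma adjusted p = 0.394), from differences with Iso of 0.32 in WT and -0.28 in DKO. Slco2a1 differed between genotypes by -0.34 over both treatments (limma adjusted p = 0.289).

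Among themselves the members did not share 1 pattern over the 12 arrays, which hold 2 arrays of each mouse. The highest Pearson correlations were 0.77 between Ptgs2 and Lcn2, 0.71 between Ptgs2 and Il1rn, 0.68 between Lcn2 and Il6 and 0.67 between Ptgs2 and Il1r1. Ptgs2 and Lcn2 were both lowest on the untreated array of DKO mouse 3, and these correlations were not computed without it. Osmr had negative correlations with 6 of the other 7 tested members, down to -0.47 with Il1b and Ptgs2. These values describe group differences as well as variation within groups.

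How high the best correlation of a member would be among unrelated genes was not determined, so the partners below are description only. The genes most like each member over the 12 arrays were ranked by Pearson correlation, among all tested genes with a proper name. For Lcn2 they were Dnttip2 (0.978), Bcl2a1b (0.956), an anti-apoptotic gene of the Bcl2 family, and Ociad2 (0.948). Within the 6 DKO arrays alone Dnttip2 correlated with Lcn2 at 0.981 and within the 6 WT arrays at 0.894. The DKO value includes the untreated array of DKO mouse 3, where Lcn2 was lowest. Over the 11 arrays without that array, Dnttip2 correlated with Lcn2 at 0.983. For Il1rn they were Txnip (0.957), Fam71a (0.931) and Resf1 (0.924), and Txnip correlated with it at 0.985 within WT and 0.950 within DKO. For Osmr they were Anxa5 (0.916), Mrpl45 (0.905) and Il15 (0.884), of which Il15 encodes a cytokine of lymphocyte survival. The closest gene to Il1b was Ighv7-1 (0.888), to Il1r1 Fcgr1 (0.836), to Il6 Rffl (0.886) and to Il6st Rps3a3 (0.956).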

How the data were processed

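The authors deposited log2 values of 25428 probe sets on 12 Affymetrix arrays; the submitters' processing notes name RMA without a version. All 12 columns share 1 distribution, as quantile normalization leaves them. The sources used here give no array type, RMA settings or probes per gene, and the number of arrays limits precision. Of the probe sets, 24705 had 1 symbol and 723 none; of a gene with 2 probe sets the brighter was used. Groups follow the titles and treatment labels, and mouse numbers pair the 2 arrays of an animal. Residuals of same-mouse arrays correlated at -0.0623 to 0.130.

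A model of 4 group means without a mouse block was fitted with limma 3.58.1 in R 4.3.3, tested on simulated data first; genotype over both treatments used mouse means. It shares 1 spread between groups. Genes above the array median on at least 3 arrays were tested. Named genes were all 10 members, the 2 smallest p-values of each list and the 3 highest correlations per member. Members and lists were chosen with earlier results of these data known. Alternatives changed the filter, the scaling, the variance model, array weights, the arrays in the fit and the mouse block, and left out each array in turn. With an array left out, the mean of that mouse was the value of its other array.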

Additional observations from a re-analysis of the deposited data

How the results depend on the processing

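With array weights 1 member was called with Iso in DKO (Il1rn), 2 in DKO without Iso (Lcn2 and Il6) and 2 in DKO with Iso (Lcn2 and Osmr), against 0 in each as reported. Over all 13737 genes that weighting called 1109, 698 and 164 in the same order, against 7, 28 and 42 as reported. Using only the arrays compared gave 1 member in DKO with Iso (Lcn2, limma adjusted p = 0.0229), and 77 of 13737 genes. For Iso over both genotypes the trended, robust variance model and the fixed replicate block gave 0, and for DKO over both treatments no filter gave 0. Leaving out 1 array gave 0 to 1 members in DKO without Iso, 0 to 2 in DKO with Iso, 0 to 1 for Iso over both genotypes and 0 to 1 for DKO over both treatments. The 2 in DKO with Iso came without the untreated array of DKO mouse 3, a fit that called 163 of 13737 genes there. The random replicate block changed no member's call (Il1rn adjusted p = 0.0392), and the fixed block changed none but Il1rn (0.0928). Of 1184 alternative log2 differences of the 8 tested members, 1128 kept direction and side of the threshold, 16 lost the call, 11 gained it and 29 changed sign. Many alternatives could not change a difference, such as leaving out an array of a group outside the comparison. The 2 called results, Lcn2 and Il1rn, kept their calls in 16 of 20 and 9 of 21 alternatives. Of 296 differences for the dim Il1rap and Nlrp3, 10 changed sign.

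The 29 sign changes concerned differences that did not pass. With array weights they were Il1b at 0.15 in DKO without Iso and -0.13 with Iso in DKO, Il1r1 at -0.0591 in DKO without Iso, Il6st at -0.0628 and Lcn2 at -0.049 in the interaction, and Lcn2 at -0.15 with Iso in DKO and -0.13 over both genotypes. Leaving out 1 array, Iso in WT ranged from -0.40 to 0.0465 for Il6 and from -0.27 to 0.0363 for Lcn2. Iso in DKO ranged from -0.0395 to 0.22 for Il1b, -0.19 to 0.0732 for Il1r1, -0.14 to 0.56 for Lcn2 and -0.0063 to 0.34 for Ptgs2. The interaction ranged from -0.29 to 0.0311 for Il1rn, -0.0924 to 0.21 for Il6st and -0.0259 to 0.68 for Lcn2. DKO without Iso ranged from -0.12 to 0.14 for Il1r1 and -0.0726 to 0.23 for Il6st, and DKO with Iso from -0.37 to 0.0784 for Il6. Iso over both genotypes ranged from -0.0365 to 0.19 for Il6, -0.11 to 0.0197 for Osmr and -0.13 to 0.23 for Lcn2, and DKO over both treatments from -0.0144 to 0.19 for Il6st. The cause of these shifts was not tested.

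Over all genes the number called ranged over the alternatives from 2 to 8 for Iso in WT, 0 to 1109 for Iso in DKO, 2 to 51 for the interaction, 2 to 698 for DKO without Iso, 10 to 164 for DKO with Iso, 2 to 581 for Iso over both genotypes and 2 to 211 for DKO over both treatments. Il1rap and Nlrp3, below the filter, were tested with no filter and with a filter at the 25th percentile and passed in no comparison; the lowest adjusted p was 0.248, for Nlrp3 in DKO without Iso (-0.34).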

Other observations

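The gene most like Ptgs2 over the 12 arrays was Camk2d, 1 of the 2 genes deleted in the DKO mice, with a Pearson correlation of 0.956. It was 0.913 within the 6 WT arrays, 0.987 within the 6 DKO arrays and 0.944 without the untreated array of DKO mouse 3. The next were Ighv1-75 (0.945) and Thbs1. The subset values come from the arrays that gave the ranking and are not independent of it. Any link between Ptgs2 and Camk2d was not tested, and the genotype difference of Camk2d did not pass (limma adjusted p = 0.485). Ociad2 was among the 3 genes most like Lcn2, at 0.948 over 12 arrays. It correlated with Lcn2 at 0.0537 within WT and 0.912 within DKO. Its likeness thus lay in the genotype difference and in the DKO arrays, which include the untreated array of DKO mouse 3. Without that array the correlation was 0.9335 over 11 arrays.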
